A study of Mus musculus with 4 samples.

Results

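Imprinted genes are expressed mainly or only from the allele inherited from one parent. A list of 33 of them was followed in cultured mouse cardiac fibroblasts, 20 expressed from the paternal allele, 12 from the maternal allele and 1, Gnas, with transcripts of both kinds. The genes were found by their symbol in the array annotation. Of the 33, 31 were present (18 paternal, 12 maternal and Gnas) among 20680 genes in all, and Rtl1 and Dio3 were not found under those symbols. The list covers 15 imprinted domains.

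Most imprinted genes lie in clusters, in which a differentially methylated control region, marked in the germ line of one parent, sets the expression of several neighbours in cis. The mark is kept through cell division by maintenance methylation, with zinc finger proteins such as ZFP57 holding it in the early embryo. Many of the genes act on growth: several paternally expressed ones promote it in the fetus, several maternally expressed ones restrain it, and many are switched down in tissues after birth. Arrays measure the RNA of both alleles together, so no value here says which allele was used.

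RNA came from fibroblasts of hearts of 3-month-old male mice after 4 days of culture, and RNA of 3 batches was pooled before labelling. The methods also speak of 3 RNA pools for each genotype, and which of them each array carried is not stated. There were 4 conditions with 1 Affymetrix array each: WT and PMCA4-/- fibroblasts, either untreated or kept for 72 h with 30 µM phenylephrine, which activates α1-adrenergic receptors. The PMCA4-/- mice carried a global deletion of exon 2 and a piece of exon 3 of Pmca4, the gene of the plasma membrane calcium ATPase isoform 4, in every cell type, and the sources used here name no strain for these mice. With 1 array per condition no value has a replicate error, and the comparison of genotypes is a comparison of these pools.

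The unit throughout is the PUMA intensity of a gene's brightest probe set, on a linear scale on which the median of all probe sets was 34.0 on each array. A value under that median is called dim. Before a log2 difference or a fold change was taken, dim values were raised to the median of their array, so that where one side of a pair was dim the result is only a bound, written as at least N-fold. A gene was counted as different when the fold change was 2 or more. No p-value goes with such a count. Levels of different genes cannot be set against each other on an array.

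The arrays of one genotype were close to each other. Across the 20680 genes, which are not independent replicates, log2 intensities with dim values raised correlated at 0.999 between the WT arrays and at 0.999 between the PMCA4-/- arrays, against 0.972 across genotypes. Fibroblast markers were bright in all conditions: only Tcf21 of 10 was dim, and their summed intensity lay between 76175 and 86444. None was 2-fold apart between the genotypes, and their directions differed, with median log2 differences of 0.13 and 0.06. Col1a1 was 1.99-fold and 1.57-fold higher in PMCA4-/- fibroblasts and Col3a1 1.64-fold and 1.43-fold higher. Pdgfra was 1.28-fold and 1.44-fold lower and Ddr2 1.21-fold and 1.22-fold lower. Endothelial, cardiomyocyte and skeletal myoblast markers were almost all dim on every array (5 of 6, 6 of 7 and 4 of 4 found), with Tek, at 222 to 258, the exception among endothelial genes. Of the macrophage markers, 4 of the 7 found (Ptprc, Cd68, Itgam and Aif1) were dim on every array, Csf1r was 2.48-fold and 2.73-fold higher in PMCA4-/- fibroblasts, Cd14 was 1.45-fold higher in both pairs and Lyz2 1.16-fold and 1.02-fold, and the summed level was 1462 and 1627 in WT against 2146 and 2396 in PMCA4-/- fibroblasts. Smooth muscle markers summed to 3563 and 3547 in WT against 11862 and 11978 in PMCA4-/- fibroblasts, mainly through Acta2, the smooth muscle actin, which was 4.03-fold higher without and 4.06-fold higher with phenylephrine. Tagln was 1.98-fold and 2.11-fold higher, while the pericyte gene Rgs5 was 5.43-fold and 5.40-fold lower and Myh11 and Des were dim. Adipocyte markers summed to 1976 and 2327 in WT against 3061 and 3310 in PMCA4-/- fibroblasts, with Adipoq dim on every array Fabp4 2.52-fold and 2.40-fold higher and Pparg at log2 differences of -0.50 and -0.19. Mesothelial markers summed to 109.6 and 106 in WT against 119 and 80.2 in PMCA4-/- fibroblasts, and 3 of 5 were dim on every array. Wt1 was 1.60-fold and 2.14-fold lower, and Krt19 read 1.19 and 1.98 in WT against 43.1 and 27.4 in PMCA4-/- fibroblasts. The single probe set of the targeted gene, Atp2b4, read 19.6 and 23.3 in WT against 31.6 and 37.9 in PMCA4-/- fibroblasts, dim on 3 of 4 arrays, and where it lies relative to the deletion is not given, so it does not check the labels.

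Members at least 2-fold apart between the genotypes came from 6 of the 15 domains, and 10 domains had a member above the median on some array. The promoters of the 6 such members that have an entry are shown, with that of Mkrn3, which lies between Ndn and Peg12. In the Snrpn domain on chromosome 7, Ndn, Mkrn3 and Peg12 were all lower in PMCA4-/- fibroblasts, and each has 1 annotated start. Mest on chromosome 6, higher in PMCA4-/- fibroblasts, has an upstream start and a downstream group of starts, of which the first is shown, and Meg3 on chromosome 12, likewise higher, is shown at the first of its starts. Dlk1 is the neighbour of Meg3, and Slc22a18, lower in PMCA4-/- fibroblasts, lies in the Kcnq1ot1 domain. Sequences are from RefSeq, build GRCm38.p6, and run 5′ to 3′ on the gene's strand from 250 bases before the start to 50 bases after it. Capitals mark TGCCGC on either strand (GCGGCA when read on the other), the core motif that ZFP57 binds in methylated DNA.
Ndn, chr7:62348027-62348326, plus strand: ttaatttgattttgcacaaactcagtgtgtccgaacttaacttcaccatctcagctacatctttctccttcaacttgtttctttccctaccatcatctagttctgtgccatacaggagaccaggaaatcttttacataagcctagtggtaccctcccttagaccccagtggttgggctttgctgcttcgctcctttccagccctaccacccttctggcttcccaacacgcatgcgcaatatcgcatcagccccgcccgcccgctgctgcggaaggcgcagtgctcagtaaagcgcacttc
Mkrn3, chr7:62420104-62420403, minus strand: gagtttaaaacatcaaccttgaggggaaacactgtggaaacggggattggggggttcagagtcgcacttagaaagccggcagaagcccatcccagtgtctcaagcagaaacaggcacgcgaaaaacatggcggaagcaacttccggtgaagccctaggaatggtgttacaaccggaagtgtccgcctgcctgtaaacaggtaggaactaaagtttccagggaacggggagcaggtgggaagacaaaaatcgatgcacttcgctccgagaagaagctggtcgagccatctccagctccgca
Peg12, chr7:62464461-62464760, minus strand: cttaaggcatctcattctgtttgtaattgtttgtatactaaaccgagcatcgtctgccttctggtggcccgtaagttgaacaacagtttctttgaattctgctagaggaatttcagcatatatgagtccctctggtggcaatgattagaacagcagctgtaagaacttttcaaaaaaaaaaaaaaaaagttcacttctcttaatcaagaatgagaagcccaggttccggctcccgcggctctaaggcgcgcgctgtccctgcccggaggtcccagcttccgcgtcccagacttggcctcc
Mest upstream start, chr6:30733256-30733555, plus strand: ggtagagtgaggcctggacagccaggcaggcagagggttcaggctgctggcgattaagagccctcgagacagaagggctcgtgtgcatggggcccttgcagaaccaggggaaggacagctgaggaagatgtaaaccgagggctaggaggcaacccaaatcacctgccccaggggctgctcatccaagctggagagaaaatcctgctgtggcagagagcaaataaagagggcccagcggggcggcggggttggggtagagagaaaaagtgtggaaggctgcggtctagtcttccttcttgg
Mest downstream start, chr6:30737800-30738099, plus strand: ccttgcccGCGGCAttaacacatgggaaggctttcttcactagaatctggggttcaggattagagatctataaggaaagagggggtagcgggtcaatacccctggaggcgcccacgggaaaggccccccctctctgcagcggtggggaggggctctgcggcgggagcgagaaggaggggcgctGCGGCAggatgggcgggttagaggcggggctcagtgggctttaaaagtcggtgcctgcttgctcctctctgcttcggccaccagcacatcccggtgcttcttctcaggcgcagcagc
Meg3, chr12:109540746-109541045, plus strand: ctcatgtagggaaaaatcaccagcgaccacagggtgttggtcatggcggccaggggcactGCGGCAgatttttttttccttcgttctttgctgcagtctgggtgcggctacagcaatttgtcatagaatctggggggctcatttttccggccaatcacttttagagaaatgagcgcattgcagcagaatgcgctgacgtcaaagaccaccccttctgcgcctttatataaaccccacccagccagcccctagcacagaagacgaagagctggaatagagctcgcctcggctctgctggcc
Dlk1, chr12:109452573-109452872, plus strand: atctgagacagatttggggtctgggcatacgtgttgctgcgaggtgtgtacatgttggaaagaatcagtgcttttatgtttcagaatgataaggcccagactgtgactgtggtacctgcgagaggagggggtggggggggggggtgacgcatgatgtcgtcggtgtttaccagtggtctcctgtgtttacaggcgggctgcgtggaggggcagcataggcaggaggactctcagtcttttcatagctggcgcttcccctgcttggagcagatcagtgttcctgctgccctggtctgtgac
Slc22a18, chr7:143473539-143473838, plus strand: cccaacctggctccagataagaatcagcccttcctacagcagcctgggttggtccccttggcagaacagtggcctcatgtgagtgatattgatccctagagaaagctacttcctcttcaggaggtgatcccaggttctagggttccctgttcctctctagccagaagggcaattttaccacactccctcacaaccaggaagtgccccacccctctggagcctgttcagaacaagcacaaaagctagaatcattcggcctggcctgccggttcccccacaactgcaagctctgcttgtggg

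The motif occurred 2 times at the downstream Mest start and 1 time at Meg3. None of the windows at Ndn, Mkrn3, Peg12, Dlk1, Slc22a18, the upstream Mest start and the second Meg3 start held these letters, so that genes higher in PMCA4-/- fibroblasts were found with and without it. CG dinucleotides, the bases that carry DNA methylation, numbered 11 at Ndn, 15 at Mkrn3, 12 at Peg12, 8 and 17 at the upstream and downstream Mest starts, 13 at the first Meg3 start, 9 at Dlk1 and 2 at Slc22a18. In RefSeq, 26 of the listed genes had 39 promoters, some of which overlap, with a median of 13 CG dinucleotides against 7 over all 32851 promoters. The motif was in 10 of the 39 (25.6%), from 9 genes, and in 3813 of all 32851 (11.6%). A motif match is a description of the letters only, and methylation was not measured.

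In the untreated pair 3 of the 31 imprinted genes were at least 2-fold higher in PMCA4-/- than in WT fibroblasts (Mest, Dlk1 and Meg3), where 2.47% of all genes were, and 5 were at least 2-fold lower (H19, Slc22a18, Ndn, Peg12 and Impact), where 2.66% of all genes were. In the phenylephrine pair 3 were higher (Mest, Dlk1 and Cdkn1c) against 2.66% of all genes, and the same 5 were lower against 2.72% of all genes. Of the 31, 7 (22.6%) were 2-fold apart the same way in both pairs, against 4.41% of all genes. The members were chosen with earlier results of these data known, so these shares are no test of imprinted genes as a class. The pairs have no array in common, but each genotype's RNA was pooled from batches of cells that may be the same for both treatments, so the second pair is not an independent replicate. Both parental classes held genes of both directions: in each pair 2 paternally expressed genes were higher and 3 lower, and 1 maternally expressed gene was higher and 2 lower. The median log2 difference was 0 for the members and 0 for all genes in both pairs, and the median size of the difference without its sign was 0.04 and 0.09 for the members against 0.07 and 0.07 for all genes. Genes dim in both arrays of a pair were set to 0, which holds these medians at or near 0, so they do not compare the members with all genes. Some of the smooth muscle, macrophage, adipocyte and mesothelial markers given above moved with genotype as well, and their part in these differences was not tested. In RNA of a whole culture, fewer cells that express a gene and less RNA per cell cannot be told apart.

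**Figure D1:**
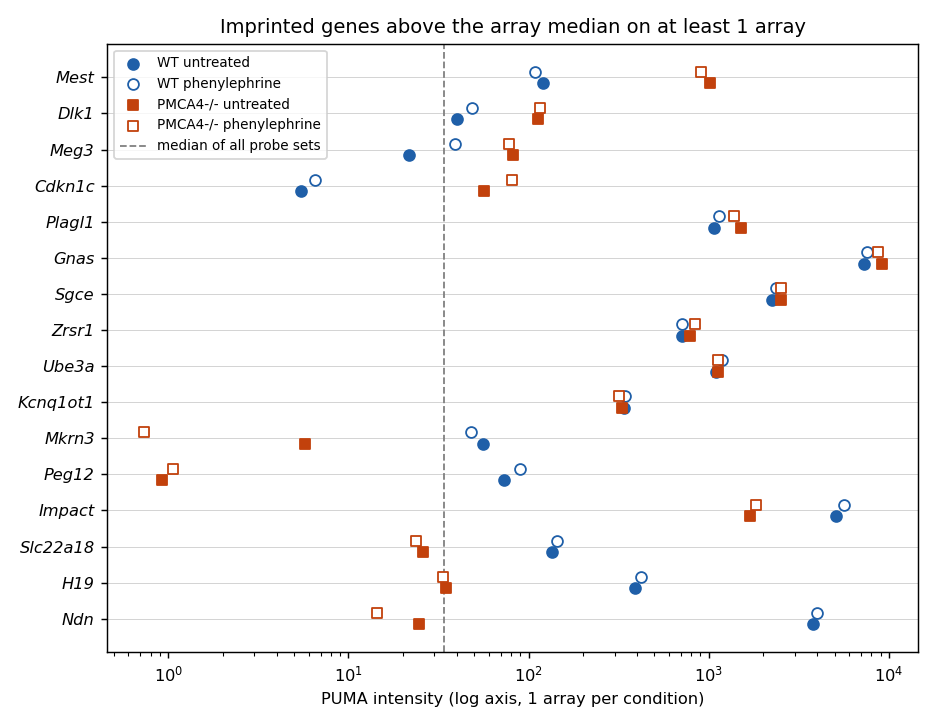
PUMA intensity of the 16 imprinted genes that were above the array median on at least 1 of the 4 arrays, on a log axis, with 1 point per array and the dashed line at the median of all probe sets. Filled and open symbols of one genotype lie close together in most rows, while Mest, Dlk1, Meg3 and Cdkn1c lie further right in PMCA4-/- and Ndn, H19, Slc22a18, Peg12, Mkrn3 and Impact further left.

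The largest difference among the members was that of Ndn, paternally expressed, which encodes necdin, a growth-suppressing protein of the MAGE family. Ndn read 3774 in untreated WT, 3986 in phenylephrine-treated WT, 24.8 in untreated PMCA4-/- and 14.4 in phenylephrine-treated PMCA4-/- fibroblasts. Both WT values were bright and both PMCA4-/- values were dim. Ndn was at least 111-fold lower without phenylephrine and at least 117-fold lower with it. Of its 8 probe sets, 5 were above the median on some array, and all 5 were at least 2-fold lower in both pairs, with log2 differences of -6.79 to -4.82 and of -6.87 to -4.95. The probe sets target the same transcript and are no replicates of it. The log2 difference from the Robust Multiarray Average (RMA) table, the authors' other estimate from the same arrays, was -5.82 and -6.01.

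Peg12 and Mkrn3, neighbours of Ndn in the same paternally expressed cluster, were lower too in PUMA values. Peg12, a member of the Frat gene family, read 73.0 and 89.2 in WT against 0.92 and 1.06 in PMCA4-/- fibroblasts, at least 2.15-fold and at least 2.62-fold lower. Mkrn3, which encodes a makorin RING finger protein, read 55.8 and 47.8 in WT against 5.76 and 0.73 in PMCA4-/- fibroblasts. Mkrn3 passed from above the median to dim as well, but its WT level was so near the median that the bound, at least 1.64-fold and at least 1.41-fold, stayed under 2. In RMA values without a floor the log2 differences of Mkrn3 were -1.96 and -2.42 and those of Peg12 were -1.76 and -2.35, but all RMA values of Peg12 and all but 1 of Mkrn3 were below the RMA array median, and with a floor the differences of Mkrn3 were -0.0031 and 0 and those of Peg12 0 and 0.

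Of the other genes of this domain, Magel2, a MAGE-family gene between Ndn and Mkrn3, was dim on all arrays at 8.83 to 18.7. Ube3a, a ubiquitin ligase gene that is imprinted in neurons and expressed from both alleles in most other cells, read 1099.7 and 1190.3 in WT against 1133 and 1119.9 in PMCA4-/- fibroblasts, log2 differences of 0.04 and -0.09, while its 6 probe sets ran from -0.30 to 0.21 and from -0.77 to 0.22. Snrpn, which encodes a spliceosomal protein and whose promoter region holds the control element of the domain, had 1 probe set under its own symbol, dim at 0.85 to 3.83. A further 6 probe sets are annotated jointly to Snrpn and Snurf, which share a transcript, and were not counted. Of these, 4 were above the median on some array, and their log2 differences ran from -1.47 to 0.08 without phenylephrine and from -1.20 to -0.29 with it. One of these, which is also annotated to a further symbol, read 94.6 and 92.0 in WT against 34.2 and 39.9 in PMCA4-/- fibroblasts, 2.77-fold and 2.30-fold lower, with RMA log2 differences of -0.99 and -0.48. The brightest read 243 and 242 in WT against 144 and 143 in PMCA4-/- fibroblasts, 1.69-fold lower in both pairs. Its RMA log2 differences were -0.62 and -0.74. The next brightest read 158 and 187 in WT against 137 and 153 in PMCA4-/- fibroblasts, with RMA log2 differences of 0.01 and -0.04. The dimmest of the 4 gave RMA log2 differences of 0.0032 and -0.13, so the 4 probe sets do not give one answer. The Snrpn and Snurf transcript stayed measurable where Ndn was dim. The nearest measured gene beyond Peg12, Chrna7, was dim on all arrays, and Klf13, further on, differed by -0.09 and 0.11.

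**Figure D2:**
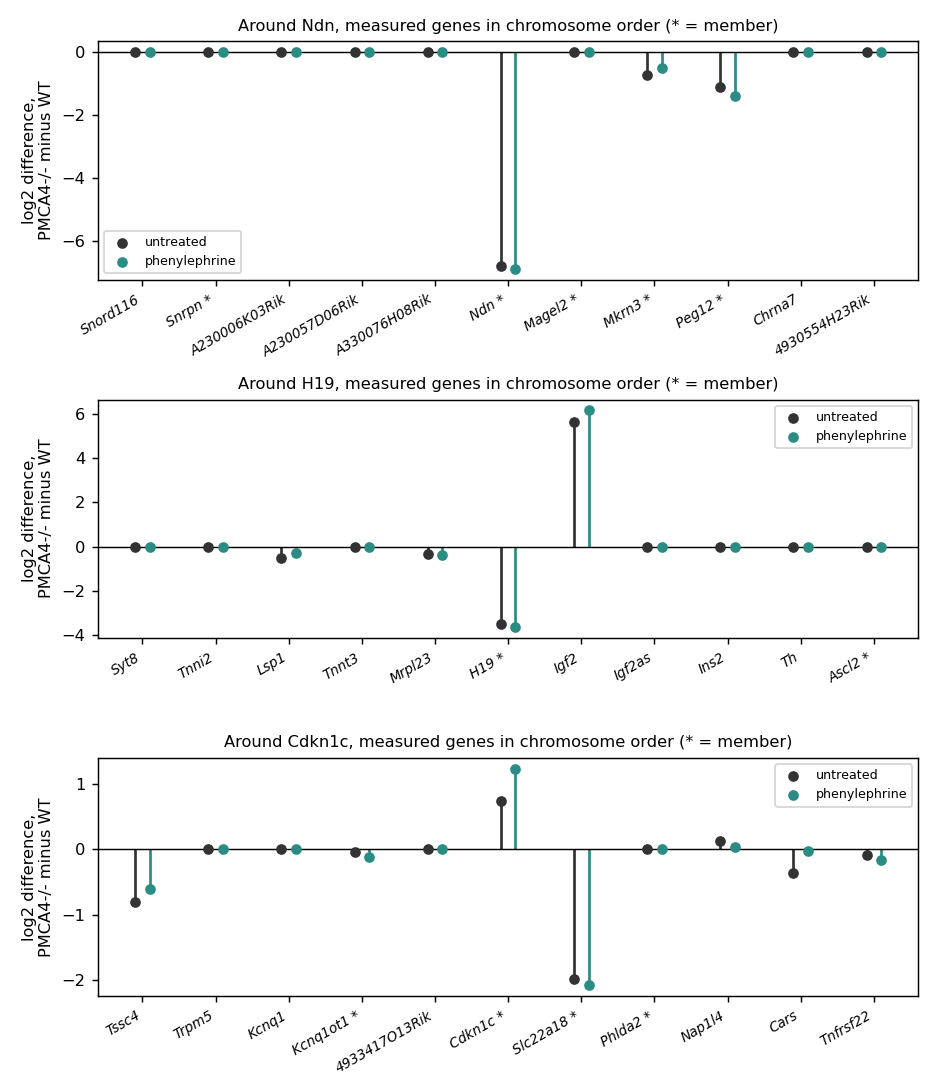
Log2 difference, PMCA4-/- minus WT, of measured genes in chromosome order around Ndn, H19 and Cdkn1c, with dim values raised to the array median and the untreated and phenylephrine pairs side by side. A value of 0 stands for a gene dim in both arrays of the pair, and the neighbours H19 and Igf2, and Cdkn1c and Slc22a18, lie on opposite sides of 0.

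H19, a maternally expressed long non-coding RNA, and Igf2, the paternally expressed gene of insulin-like growth factor 2, share enhancers, and a control region bound by CTCF between them directs these to one gene or the other on each allele. H19 read 390.3 and 421 in WT against 35.0 and 33.5 in PMCA4-/- fibroblasts, the last being dim. It was 11.2-fold lower without phenylephrine and at least 12.4-fold lower with it, with RMA log2 differences of -3.46 and -3.35. Igf2, next to it and not on the list of 33, read 171 and 117 in WT against 8526 and 8393 in PMCA4-/- fibroblasts, 49.7-fold and 71.6-fold higher. RMA gave smaller log2 differences for this probe set, 4.42 and 4.69 against 5.64 and 6.16, and a second Igf2 probe set was at least 3.69-fold and at least 3.74-fold higher. The pair thus moved in opposite directions between the genotypes. The genes around them did not stand out: Mrpl23 differed by -0.34 and -0.38 and Lsp1 by -0.50 and -0.27, while Ins2, Th and Ascl2, a placental transcription factor gene on the list, were dim on all arrays.

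In the neighbouring Kcnq1ot1 domain a paternally expressed antisense RNA, Kcnq1ot1, silences a row of maternally expressed genes in cis. Kcnq1ot1 itself read 339 and 342 in WT against 329 and 316 in PMCA4-/- fibroblasts, log2 differences of -0.04 and -0.11, and its 4 readable probe sets disagreed in direction, from -0.33 to 0.17 and from -0.48 to 0.12. Cdkn1c, the gene of the cyclin-dependent kinase inhibitor p57, read 5.44 and 6.48 in WT against 56.9 and 80.5 in PMCA4-/- fibroblasts. It was dim in WT and above the median in PMCA4-/- fibroblasts under both treatments, at least 1.67-fold and at least 2.37-fold higher, and the phenylephrine pair alone passed 2-fold. RMA gave log2 differences of 1.03 and 1.63, past 2-fold in both pairs. Slc22a18, a membrane transporter gene next to it, went the other way, at 135 and 144 in WT against 26.1 and 23.7 in PMCA4-/- fibroblasts, at least 3.96-fold and at least 4.24-fold lower. Its second probe set, closer to the median, gave -0.24 and -0.56, and the RMA log2 differences of the first were -1.06 and -1.41. Phlda2, a maternally expressed growth regulator, was dim on all arrays at 0.10 to 0.26, so the maternally expressed genes of this domain neither moved together nor could all be read.

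Mest, a paternally expressed gene for a protein with an α/β-hydrolase fold, showed the largest difference among members that were above the median on every array. It read 120.2 and 108 in WT against 1019.95 and 903 in PMCA4-/- fibroblasts, 8.49-fold and 8.33-fold higher, with RMA log2 differences of 2.91 and 3.01. Mest has 1 probe set. Its nearest measured neighbours Tsga14 and Copg2, of which Copg2 is itself imprinted, differed by 0.65 and 0.64 in the untreated pair and by 0.64 and 0.55 in the phenylephrine pair, in the same direction and under 2-fold.

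In the Dlk1-Dio3 domain on chromosome 12 both measured members were higher in PMCA4-/- fibroblasts, although they are expressed from opposite alleles. Dlk1, a paternally expressed transmembrane protein with EGF-like repeats that restrains adipocyte differentiation, read 40.1 and 48.6 in WT against 112 and 115 in PMCA4-/- fibroblasts, 2.80-fold and 2.37-fold higher. Meg3, a maternally expressed long non-coding RNA, read 21.8 and 39.2 in WT against 81.5 and 77.9 in PMCA4-/- fibroblasts, at least 2.40-fold and 1.98-fold higher. The values of both genes lay within a few-fold of the array median. Only 2 of 11 Meg3 probe sets were above the median on any array, both higher in both pairs, and the second probe set of Dlk1 was dim. The RMA log2 differences were 1.18 and 1.28 for Dlk1 and 0.96 and 0.64 for Meg3. Rian and Mirg, further non-coding RNAs of this domain, were dim on all arrays.

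Impact, paternally expressed, encodes a protein that binds GCN1 and so restrains the amino acid sensor kinase GCN2. It was bright on every array, at 5120.45 and 5621 in WT against 1696 and 1829 in PMCA4-/- fibroblasts, 3.02-fold and 3.07-fold lower. Its second measurable probe set read 211 and 212 in WT against 101 and 89.2 in PMCA4-/- fibroblasts, 2.09-fold and 2.38-fold lower. RMA gave -1.55 and -1.57. Among readable neighbours on chromosome 18, Osbpl1a differed by -0.71 and -0.80, Zfp521 by -0.83 and -0.86 and Ss18 by -0.50 and -0.56, while Ttc39c differed by 0.31 and 0.27 and Ankrd29 by 0.33 and 0.34. Over the 100 nearest measured genes the median difference was 0 in both pairs. Genes dim in both arrays of a pair count as 0 in it, so this median can hardly show a shift of the region.

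**Figure D3:**
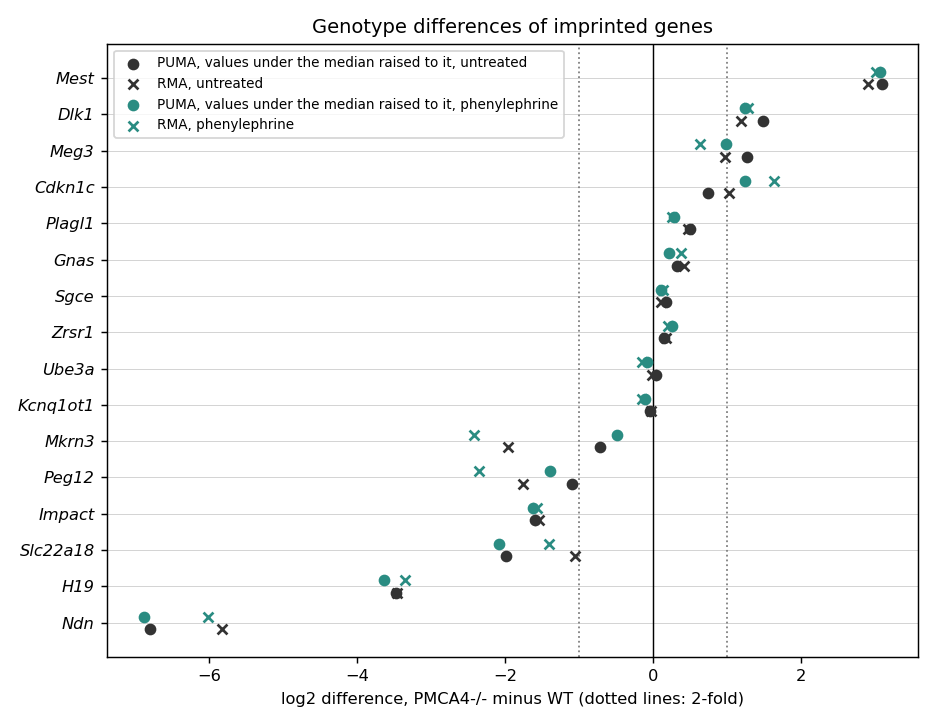
Log2 difference, PMCA4-/- minus WT, of the same 16 genes in both pairs from PUMA values with dim values raised to the median (circles) and from RMA values without a floor (crosses), with dotted lines at 2-fold. Circles and crosses lie on the same side of 0 for all members that were at least 2-fold apart, from Ndn at -6.79 to Mest at 3.09 in the untreated pair, and are furthest apart for Mkrn3.

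Another 6 members were above the median on all 4 arrays and within 2-fold between genotypes. Beside Kcnq1ot1 and Ube3a, these were Plagl1, a paternally expressed zinc finger transcription factor gene (1068 and 1134 in WT, 1503 and 1384 in PMCA4-/-), and Gnas, which encodes the stimulatory G protein α subunit among other products (7273 and 7565 in WT, 9116 and 8758 in PMCA4-/-). The log2 differences were 0.49 and 0.29 for Plagl1 and 0.33 and 0.21 for Gnas, whose 3 measurable probe sets were all higher, by 0.33 to 0.96 in the untreated pair. Zrsr1, a splicing factor gene, read 710.4 and 708 in WT against 790 and 843 in PMCA4-/- fibroblasts, differences of 0.15 and 0.25. Sgce, the ε-sarcoglycan gene, read 2242 and 2365 in WT against 2517 and 2534 in PMCA4-/- fibroblasts, log2 differences of 0.17 and 0.10, but its second probe set gave -0.54 and -0.78, so its probe sets disagree in direction.

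The remaining 15 found members were dim on all 4 arrays at the probe sets under their own symbol, with mean intensities of up to 26.3, and no difference between genotypes could be measured there. They were the paternally expressed Nap1l5, Peg10, Peg3, Usp29, Snrpn, Magel2, Nnat and Rasgrf1 and the maternally expressed Ppp1r9a, Asb4, Calcr, Phlda2, Ascl2, Zim1 and Grb10. Among them are genes used mainly in placenta or brain, such as Ascl2 and Nnat. Rasgrf1, a Ras exchange factor gene, came nearest to the median, at 33.7 in untreated WT. Peg10, a gene derived from a retrotransposon next to Sgce, read 4.38 and 4.10 in WT against 20.5 and 24.9 in PMCA4-/- fibroblasts, all dim.

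A limma model of genotype plus treatment over the 4 arrays was fitted to the 11462 genes whose mean intensity exceeded 35.1, the median over probe sets. It has 1 residual degree of freedom, and its error is how far the genotype difference varied between treatments, not between cultures, so p-values are too small for a statement about cultures. Of the 31 members 15 passed the filter. Cdkn1c, Ndn, Peg12 and Slc22a18 did so through one genotype alone, being dim in both arrays of the other. H19 likewise passed through WT alone, since its PMCA4-/- values of 35.0 and 33.5 were both under 35.1. Meg3 read 21.8 and 39.2 in WT, the first under the filter, and 81.5 and 77.9 in PMCA4-/- fibroblasts. The filter thus favoured the calls of Cdkn1c, Ndn, Peg12, Slc22a18, H19 and Meg3. Of all genes tested, 24.5% were called higher and 25.7% lower in PMCA4-/- fibroblasts at an adjusted p under 0.05, and of the 15 members 6 were higher (Mest, Dlk1, Meg3, Cdkn1c, Plagl1 and Gnas) and 5 lower (H19, Slc22a18, Ndn, Peg12 and Impact). In this fit, on log2 intensities without a floor, the genotype effect of Mest was 3.07 ± 0.07 (SE, adjusted p = 0.00026), that of H19 was -3.57 ± 0.08 (adjusted p = 0.00026) and that of Impact was -1.61 ± 0.07 (adjusted p = 0.00084). Meg3 had the widest error of the called members, at 1.45 ± 0.24 (adjusted p = 0.014). Plagl1 (adjusted p = 0.027) and Gnas (adjusted p = 0.047) passed the threshold with effects of 0.39 and 0.27, while Zrsr1 (adjusted p = 0.086), Sgce (0.19), Kcnq1ot1 (0.40) and Ube3a (0.82) did not. Gnas missed the threshold after quantile normalization (adjusted p = 0.052), and Zrsr1 passed it with RMA values (adjusted p = 0.032) and with an intensity trend (adjusted p = 0.0036). Without the intensity filter limma called no gene of 20680, members included, and 13 members then had an unadjusted p under 0.05. The share of all genes at that unadjusted threshold was not counted, so the 13 are no result particular to imprinted genes.

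No imprinted gene that could be read was 2-fold apart with phenylephrine. Beside the 15 members dim on all arrays, Cdkn1c was dim in both WT arrays, and Ndn, Peg12, Mkrn3 and Slc22a18 were dim in both PMCA4-/- arrays, so that no phenylephrine difference could be measured for them there. None of the 31 was 2-fold higher or lower in WT fibroblasts, where 0.00484% and 0.00967% of all genes were, or in PMCA4-/- fibroblasts, where 0.00967% and 0.0193% were, so a count of 0 is what the background gives. The largest difference in WT fibroblasts was that of Peg12, 0.29 on the log2 scale, and in PMCA4-/- fibroblasts that of Cdkn1c, 0.50. Among the 9 members above the median on all arrays, the differences with phenylephrine ran from -0.15 to 0.28 in WT and from -0.18 to 0.11 in PMCA4-/- fibroblasts. For the phenylephrine effect over both genotypes limma called 0 of 11462 genes, with 458 genes and 2 members at an unadjusted p under 0.05.

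A second list held 30 further imprinted genes, of which 28 were found and 9 were dim on all arrays. It too was chosen with earlier results of these data known. In both pairs 3 of the 28 were at least 2-fold higher in PMCA4-/- fibroblasts and 0 were lower, against 2.47% and 2.66% of all genes higher and 2.66% and 2.72% lower. Beside Igf2 these were Sfmbt2, a paternally expressed polycomb-group gene, at 22.2 and 28.6 in WT against 138 and 126 in PMCA4-/- fibroblasts (at least 4.07-fold and at least 3.70-fold), and Atp10a, a phospholipid-transporting ATPase gene near Ube3a on chromosome 7, at 48.7 and 55.2 in WT against 133 and 165 in PMCA4-/- fibroblasts (2.73-fold and 2.99-fold). The next largest difference in the untreated pair was that of Pon2, 1.78-fold and 1.80-fold lower, with RMA log2 differences of -0.92 and -0.91. The count of 0 lower depends on the floor. Tfpi2 passed from 44.1 and 38.6 in WT, near the median, to 0.66 and 1.43 in PMCA4-/- fibroblasts. Its bound, at least 1.30-fold and at least 1.14-fold lower, stayed under 2, while RMA without a floor gave -2.14 and -1.89. Igf2r, the maternally expressed receptor that clears IGF2, differed by 0.35 and 0.42.

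Of 20 genes for the enzymes and binding proteins that set or keep DNA methylation and imprints, 19 were found, and 0 were 2-fold higher or lower in either pair. Of all genes 2.47% and 2.66% were higher and 2.66% and 2.72% lower, so a count of 0 among 19 is near the background. Zfp57, Dppa3 and Tet3 were dim on all arrays. In the untreated pair the largest differences were those of Dnmt3l, a cofactor of de novo methylation (0.73, and 0.56 with phenylephrine), Dnmt3b, a de novo DNA methyltransferase (0.71 and 0.75), and Eed, a subunit of Polycomb repressive complex PRC2 (-0.53 and -0.59). With phenylephrine Setdb1, a histone methyltransferase gene, reached 0.66 and Tet2 0.60. Dnmt1, the maintenance DNA methyltransferase, differed by -0.05 and 0.04, and Ctcf by 0.27 and 0.29.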

How the data were processed

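RNA of 3 pooled batches of fibroblasts was measured on 1 array per condition, where the methods name 3 pools of each genotype. The authors analysed the arrays with MAS5.0 and Robust Multiarray Average (RMA) and estimated expression with PUMA. The sources used here give no versions, no annotation release and no genome build. The chip is named MOE430A in the methods, and the tables hold 45037 probe sets. The deposited intensity values of both tables are linear, with array medians of 34.0 (PUMA) and 72.5 to 73.0 (RMA). All 180148 values of one further table equal the PUMA values within a share of 0.0001. Columns with the authors' fold changes and probabilities of a positive log ratio were not used.

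Probe sets with 1 symbol (37818) were used, leaving out 1394 with several, 5820 with none and 5 unreadable, which gave 20680 genes. A gene was read from the probe set with the highest mean, and 9528 genes had several. Values were log2-transformed without a pseudocount after values under the array median were raised to it. The limma fit used unraised values, lmFit, eBayes and Benjamini-Hochberg adjustment (limma 3.58.1, R 4.3.3, Python 3.11.15, pandas 2.3.3, NumPy 2.4.6), and the script was tested on simulated data. Gene order came from RefSeq GRCm38.p6, on which 18260 genes were placed. Every found member is accounted for, and values per array are given for members 2-fold apart in any pair and for their domain partners that could be read. Domain partners dim on all arrays are given by range or only named as dim. The rule for the other lists was at most 4 genes each, largest differences in the untreated pair first. Genes named beyond it, those named as dim among them, were chosen after their values were seen. Members and lists were chosen with earlier results of these data known.

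Alternatives were RMA values, median centring, quantile normalization, the median over probe sets, an intensity filter, a floor at the upper quartile, no floor, a 1.5-fold threshold and subtraction of the median of the 100 nearest genes, and for limma RMA, a floor, no filter, an intensity trend, genotype alone and quantile normalization. RMA values without a floor were added after seeing the data. Precision is limited by the number of arrays.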

Additional observations from a re-analysis of the deposited data

Results flagged for a closer look

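In 5 of the 9 members above the array median on all arrays the phenylephrine difference had opposite signs in WT and PMCA4-/- fibroblasts. The share of all genes with opposite signs was not counted, so this is no result particular to imprinted genes. The difference between genotypes was not tested, since each condition has 1 array. For Plagl1 the log2 difference was 0.09 in WT and -0.12 in PMCA4-/- fibroblasts, a difference of -0.21 between genotypes. For Ube3a it was 0.11 and -0.02, a difference of -0.13, and for Gnas 0.06 and -0.06, a difference of -0.11. For Zrsr1 it was -0.0047 and 0.09, a difference of 0.10, and for Kcnq1ot1 0.01 and -0.06, a difference of -0.0702. With 1 dim value among the 4 arrays raised to the median, Meg3 (0.21 and -0.07) and H19 (0.11 and -0.04) had opposite signs as well. Of those 9 members, Ube3a was also the one whose genotype difference changed sign, from 0.04 without phenylephrine to -0.09 with it, again a difference of -0.13. All of these are under 0.5 on the log2 scale.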

How the results depend on the processing

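Counts of members 2-fold apart depended on how dim values were treated. With the floor at the upper quartile of each array, the untreated pair had 1 higher and 2 lower members and the phenylephrine pair 1 and 2. With no floor these counts were 9 and 10 in the untreated pair and 8 higher in the phenylephrine pair, and phenylephrine gave 2 lower in WT and 3 higher and 4 lower in PMCA4-/- fibroblasts. With the median of all probe sets in place of the brightest, 1 member was higher in the untreated pair. The share of all genes 2-fold apart was not counted under these settings, so these counts do not compare the members with all genes. Under limma without an intensity filter, 0 members were called higher and 0 lower. The other alternatives left these counts within 1.5 times. For single members, RMA values took Cdkn1c past 2-fold in the untreated pair (1.03) and Meg3 under it (0.96). The median over probe sets took Dlk1 to 0.74 and 0.77 and Meg3 to 0 in both pairs. RMA values with a floor took Peg12 to 0 in both pairs. H19 was -0.68 and -0.74 with the upper-quartile floor, since its WT values were not far above that quartile. Dlk1, Meg3, Cdkn1c, Slc22a18 and Peg12 were 0 in both pairs with that floor. No member 2-fold apart reversed its sign under any of these alternatives. No paired analysis was possible because each condition has 1 array, so that the labels give no 2 shared replicate numbers. The limma fit sets the genotypes against each other within each treatment.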
